A study of Homo sapiens with 12 samples.

Results

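A set of 9 genes of matrix degradation was followed in breast cancer tissue grown with or without a second engineered tissue: the metalloproteinases MMP1, MMP2, MMP3, MMP9, MMP13 and MMP14, and the tissue inhibitors of metalloproteinases TIMP1, TIMP2 and TIMP3. They were taken by name, with earlier results of these data known, and all 9 were found among the 58735 genes of the deposited count table. The cancer cells were MDA-MB-231, an established breast cancer line, carried green fluorescent protein and sat in fibrin gel in a plate under flow in all groups. In the cardiac co-culture they shared the plate with a tissue of iPSC-derived cardiomyocytes and 2% cardiac fibroblasts, and in the hepatic co-culture with a tissue of the hepatoma line HepG2 and 2% lung fibroblasts. In the monoculture they were alone. RNA came from the cancer tissue 5 days after seeding, in 4 libraries per group, which the labels call biological replicates without naming separate cultures; every p-value therefore reflects the spread among these libraries, which may be technical.

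Metalloproteinases are zinc enzymes that cut proteins of the extracellular matrix. Most are secreted as inactive proenzymes and are switched on when their propeptide is cut off, while MMP14 is anchored in the cell membrane and works at the cell surface. MMP1 and MMP13 are collagenases, which open the triple helix of fibrillar collagen; MMP2 and MMP9 are gelatinases, which cut denatured collagen and basement membrane collagen; MMP3 is a stromelysin with a broad range of substrates that also activates other proenzymes. TIMPs are small proteins that block the active site. TIMP2 has a further role, since a complex of MMP14 with TIMP2 binds the MMP2 proenzyme so that a free MMP14 can activate it. In breast cancer these enzymes are known for their part in invasion through collagen and fibrin, and much of the activity comes from post-translational steps that mRNA levels do not show.

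Of these genes, MMP14, TIMP1 and TIMP3 had an entry in the RefSeq promoter table (GRCh38.p14) and MMP1, MMP2, MMP3, MMP9, MMP13 and TIMP2 had none. The 250 bases before the RefSeq start are shown for these 3, the most abundant proteinase gene and a more and a less abundant inhibitor gene. MMP10, another stromelysin, is added because its level followed that of MMP1 more closely than almost any other gene. The stretches are chr14:22836335-22836584 (plus strand) for MMP14, chrX:47582186-47582435 (plus strand) for TIMP1, chr22:32801455-32801704 (plus strand) for TIMP3 and chr11:102780629-102780878 (minus strand) for MMP10. Capitals mark matches, on either strand, to the AP-1 motif TGANTCA, the GC box GGGCGG, the TATA box TATAAA and the CCAAT box CCAAT; no match overlaps another.
MMP14: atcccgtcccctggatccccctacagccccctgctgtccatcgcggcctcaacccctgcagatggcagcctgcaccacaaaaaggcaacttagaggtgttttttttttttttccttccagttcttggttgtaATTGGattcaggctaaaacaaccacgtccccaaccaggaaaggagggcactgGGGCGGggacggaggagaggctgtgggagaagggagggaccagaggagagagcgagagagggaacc
TIMP1: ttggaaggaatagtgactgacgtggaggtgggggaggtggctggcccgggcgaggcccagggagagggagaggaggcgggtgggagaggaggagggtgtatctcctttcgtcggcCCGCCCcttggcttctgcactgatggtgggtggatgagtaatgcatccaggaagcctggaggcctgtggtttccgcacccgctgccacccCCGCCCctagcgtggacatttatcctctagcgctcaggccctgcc
TIMP3: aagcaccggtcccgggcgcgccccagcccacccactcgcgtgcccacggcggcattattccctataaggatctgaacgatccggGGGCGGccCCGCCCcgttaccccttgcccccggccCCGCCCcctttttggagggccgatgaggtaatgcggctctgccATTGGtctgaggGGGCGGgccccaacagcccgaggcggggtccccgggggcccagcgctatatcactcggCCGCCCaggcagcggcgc
MMP10: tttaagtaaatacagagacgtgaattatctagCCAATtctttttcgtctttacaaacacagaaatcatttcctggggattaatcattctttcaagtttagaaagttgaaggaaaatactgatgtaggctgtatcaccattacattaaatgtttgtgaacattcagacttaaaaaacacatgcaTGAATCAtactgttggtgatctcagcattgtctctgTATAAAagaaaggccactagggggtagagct
The MMP10 stretch held 1 AP-1 match 67 bases before the start and 1 TATA box 31 bases before it, and no GC box. The other 3 stretches held GC boxes (1 in MMP14, 2 in TIMP1 and 5 in TIMP3) and neither an AP-1 nor a TATA match. Over 35116 promoters of the table, 6.57% held the AP-1 motif, 42.6% the GC box, 10.7% the TATA box and 32% the CCAAT box in the same window. The base composition ran the same way, from 34.4% G and C in MMP10 to 56.8% in MMP14, 64.8% in TIMP1 and 72.4% in TIMP3.

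The cancer tissue could be recognised by genes of the MDA-MB-231 line (VIM, CD44, EGFR, AXL, CAV1, LGALS1 and S100A6), while of 5 genes listed as low in this line, ESR1, PGR and CDH1 stayed under 1 count per 1e6 counts (CPM) in every library. The other 2 did not: ERBB2 averaged 64.0 CPM in cardiac, 56.1 CPM in hepatic and 66.8 CPM in monoculture libraries, and EPCAM 7.51 (cardiac), 6.72 (hepatic) and 8.12 CPM (monoculture). Total counts were 27.0 to 37.4 M (M for 1e6) for cardiac, 26.2 to 42.4 M for hepatic and 35.0 to 42.0 M for monoculture libraries. On the first principal component, which held 28.5% of the variance, cardiac replicate 4 was placed at -24.9, inside the range of the monoculture (-51.1 to -22.3) and away from the other cardiac libraries (6.79 to 16.3). The hepatic libraries lay at 24.5 to 46.8. Results for the cardiac co-culture are therefore also given without cardiac replicate 4. Since that library was singled out for its low MMP1, values of MMP1 without it are a description with no test. It also lay among the monoculture libraries on the first component, so leaving it out favours calls between cardiac co-culture and monoculture. Genes called there went from 1443 to 3378. Calls and counts of that comparison without it are therefore a description too. Markers of the partner tissues were mostly low: 14 of 15 cardiomyocyte genes stayed under 1 CPM in each group, with a summed level of at most 4.76 CPM in cardiac co-culture, 2.53 CPM in hepatic co-culture and 3.44 CPM in monoculture. Cardiac replicate 4 had 21 counts of MYH6 and 8 of MYL7, both at 0 in the other 11 libraries, and 8 of ACTN2, which had at most 2 elsewhere; their part in its position was not tested. For hepatocyte genes 13 of 15 stayed under 1 CPM, the exceptions being SERPINA1 and FGG, with sums of 73.3 to 100.5 CPM in cardiac, 36.7 to 64.2 CPM in hepatic and 43.0 to 74.9 CPM in monoculture libraries. SERPINA1 carried most of that sum at 33.7 to 94.1 CPM.

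The plot of all 9 genes by library shows their levels in CPM, scaled by the trimmed mean of M-values (TMM) of edgeR. In bulk RNA, fewer cells of a type and less RNA per cell cannot be told apart.

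**Figure D1:**
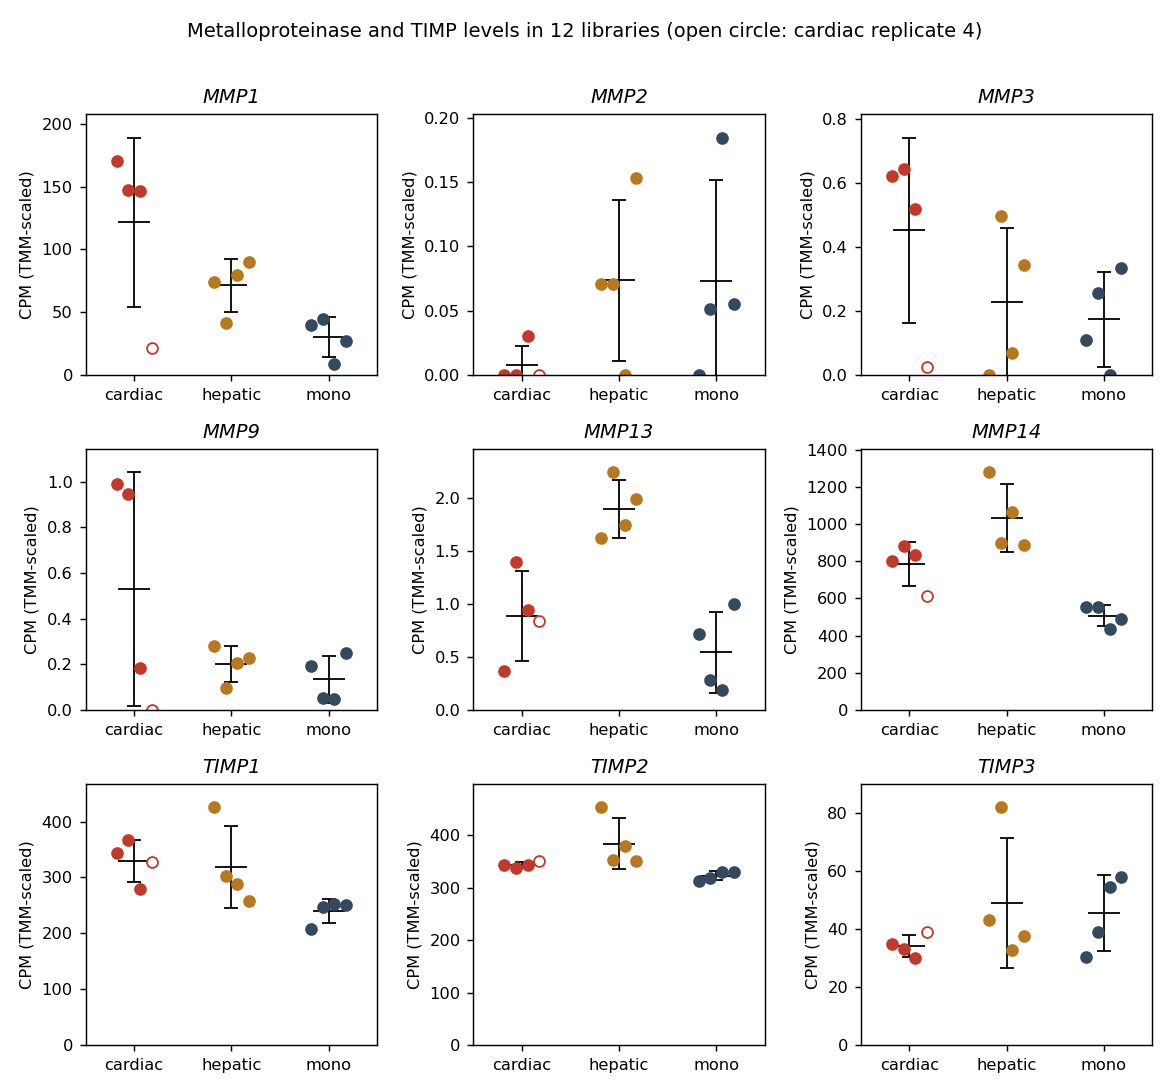
TMM-scaled CPM (linear axes from 0) of the 9 genes in cardiac co-culture, hepatic co-culture and monoculture; each circle is 1 library, the open circle is cardiac replicate 4, and the bar with whiskers is the mean with its SD over 4 libraries. MMP14 lay at 615 CPM or higher in every co-culture library and at 556 CPM or lower in the monoculture, while cardiac replicate 4 had 21.4 CPM of MMP1 against 147 CPM or more in the other cardiac libraries.

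Between genes, levels were compared per kilobase of exon. TIMP1 and MMP14 were the most abundant in every group. TIMP1 averaged 214 CPM per kb in the cardiac co-culture, 207 in the hepatic co-culture and 156 in the monoculture, and MMP14 averaged 175 (cardiac), 231 (hepatic) and 114 (monoculture) CPM per kb. Which of them led differed with the group and, in the hepatic co-culture, with the gene length used: TIMP1 came first there when the longest transcript replaced the union of exons. Next came TIMP2, at 61.1 (cardiac), 68.2 (hepatic) and 57.4 (monoculture) CPM per kb, and MMP1, at 61.6 (cardiac), 36.2 (hepatic) and 15.3 (monoculture) CPM per kb. In the cardiac co-culture their means were alike but their libraries were not. MMP1 had an SD of 34.3 CPM per kb and ranged from 10.9, in cardiac replicate 4, to 86.4, while TIMP2 ranged from 59.9 to 62.4. MMP1 was above TIMP2 in the other cardiac libraries. With the longest transcript as the length, TIMP2 averaged 94.2 CPM per kb there and MMP1 61.6. TIMP3 followed at 7.43 (cardiac), 10.6 (hepatic) and 9.86 (monoculture) CPM per kb. The other 4 proteinases were more than a factor of 10 below it: MMP13 averaged 0.313 (cardiac), 0.671 (hepatic) and 0.193 (monoculture) CPM per kb, and MMP3 and MMP9, which did not separate from each other beyond their spread, were at 0.227 CPM per kb or lower. MMP2 was last at 0.0149 CPM per kb or lower. The proteinase mRNA of this tissue was thus mostly MMP14, which made up 75.8% ± 11.3 of the summed per-length level of the 6 proteinases in the cardiac co-culture, 86.1% ± 3.98 in the hepatic co-culture and 88.5% ± 4.85 in the monoculture (SD, n = 4 each). Cardiac replicates 1 to 4 held 67.3%, 72.3%, 71.3% and 92.5%, so replicate 4 raised the cardiac mean.

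**Figure D2:**
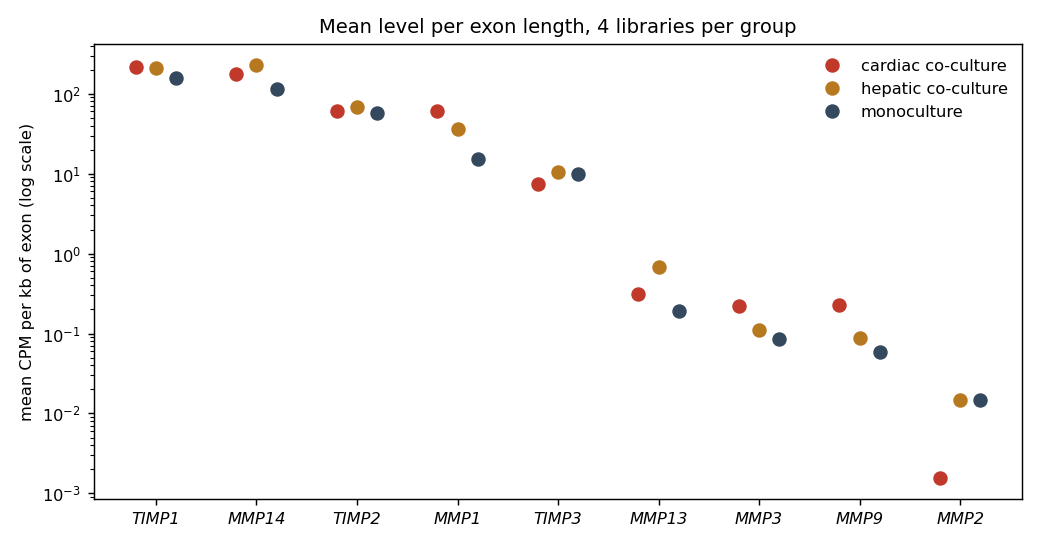
Mean level per kilobase of union exon (CPM per kb, log scale) of the 9 genes, with 4 libraries per group and no error drawn. TIMP1 and MMP14 stood highest at 114 to 231 CPM per kb, and MMP2 lowest at 0.0149 CPM per kb or less.

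Differences between groups were tested gene by gene with edgeR's quasi-likelihood test on the counts, adjusted over 17468 tested genes, at a threshold of 0.05. MMP2 and MMP9 had too few counts to be tested that way, which left 7 of the 9 genes. In the hepatic co-culture 4 of the 7 were called, MMP13, MMP14, TIMP1 and TIMP2, all higher than in the monoculture, where 28.0% of all tested genes were called and 14.4% were called higher. In the cardiac co-culture 1 of the 7 was called higher than in the monoculture, MMP14, where 8.26% of all genes were called and 4.93% were called higher. Of all genes called there, 59.7% were higher, and 72.2% under upper-quartile scaling. Between cardiac and hepatic co-culture 0 of the 7 were called, where 6.18% of all genes were. At an unadjusted p under 0.05, MMP13, MMP14 and TIMP2 were lower in the cardiac than in the hepatic co-culture. The share of all genes at that looser threshold was not computed, so the 6.18% is no background for them. DESeq2 called 1 of the 7 in that comparison, MMP14. The median log2 fold change of the 7 was 0.63 for cardiac co-culture against monoculture, 0.44 for hepatic co-culture against monoculture and -0.16 for cardiac against hepatic co-culture, beside 0.01, 0.01 and -0.00 over all tested genes. Leaving out 1 library moved the hepatic count to 2 without monoculture replicate 1, where 4042 genes in all were called beside 4892. The cardiac count against the monoculture moved to 0 without cardiac replicate 2, where 263 genes in all were called beside 1443. It moved to 2 without hepatic replicate 1 (2017 genes called) or hepatic replicate 4 (1289 genes called), where TIMP1 was added. Both co-cultures were compared with the same monoculture libraries.

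**Figure D3:**
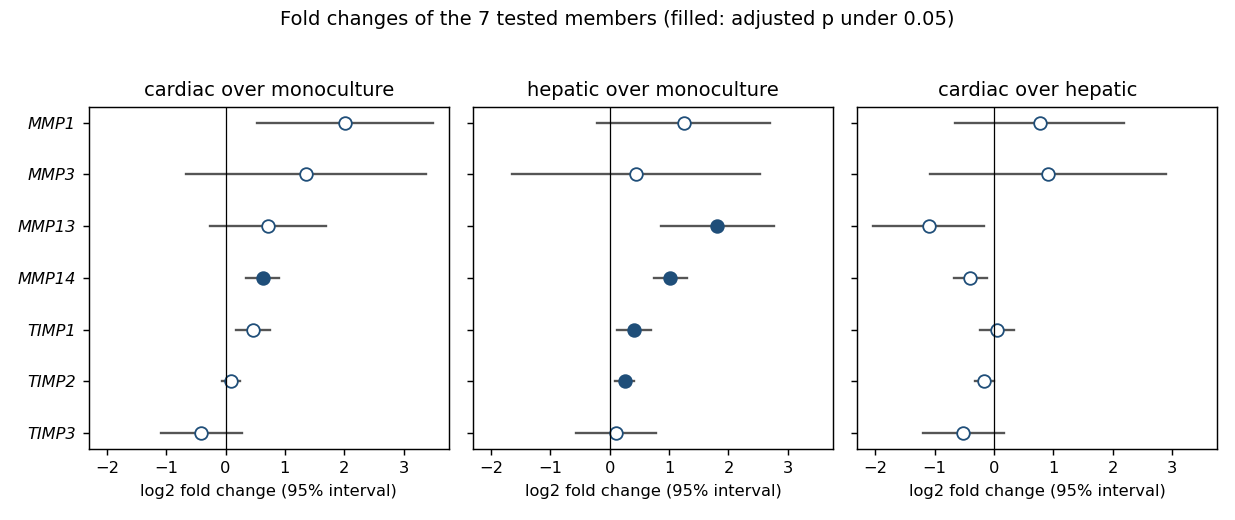
Log2 fold change (x axis) of the 7 tested genes in the 3 comparisons, with the 95% interval of the edgeR fit as a line; filled circles have an adjusted p under 0.05. MMP14 is filled against the monoculture in both co-cultures, MMP13, TIMP1 and TIMP2 only in the hepatic panel, and no circle is filled in cardiac over hepatic.

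MMP14, the membrane-anchored proteinase, lies on chromosome 14 (22836557 to 22849027, plus strand, GRCh38). It had 800, 884, 835 and 615 CPM in cardiac replicates 1 to 4, 1277, 896, 1064 and 886 CPM in the hepatic libraries, and 556, 552, 434 and 488 CPM in monoculture libraries. Every co-culture library was above every monoculture library, and every cardiac library was below every hepatic one. The gene rose 2.03-fold in the hepatic co-culture against the monoculture (log2 1.02 ± 0.13 SE, adjusted p = 8.45e-05) and 1.54-fold in the cardiac co-culture (log2 0.63 ± 0.13 SE, adjusted p = 0.0147). The hepatic call was kept in each of the 12 fits that left out 1 library. The cardiac call was lost without cardiac replicate 2 (log2 0.56, adjusted p = 0.0518), a fit in which 263 genes in all were called beside 1443 with all libraries. Without cardiac replicate 4 the cardiac value was log2 0.73, a description because that library lay among the monoculture libraries. The difference between cardiac and hepatic co-culture was log2 -0.40 ± 0.13 (SE; 95% interval -0.67 to -0.12), with an adjusted p of 0.0903 that missed the threshold.

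MMP13, a collagenase best known from cartilage and bone, lies on chromosome 11 (102942995 to 102955734, minus strand). Its counts were low, at 10, 37, 31 and 32 in the cardiac libraries, 46, 95, 51 and 52 in the hepatic libraries and 26, 11, 8 and 36 in the monoculture libraries. In CPM these were 0.367, 1.40, 0.946 and 0.842 in the cardiac co-culture, 1.62, 2.24, 1.75 and 1.99 in the hepatic co-culture and 0.720, 0.281, 0.185 and 0.999 in the monoculture. The hepatic libraries lay above all others, and the cardiac libraries overlapped the monoculture. MMP13 rose 3.51-fold in the hepatic co-culture against the monoculture (log2 1.81 ± 0.46 SE, adjusted p = 0.00639), a call kept in each of the 12 fits without 1 library. Its cardiac value against the monoculture was log2 0.71 ± 0.47 (SE, adjusted p = 0.355), and cardiac against hepatic co-culture it was -1.10 ± 0.44 (SE, adjusted p = 0.158).

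MMP1, the interstitial collagenase, lies on chromosome 11 (102789920 to 102798160, minus strand) and varied widely between libraries of the same group. It had 170, 147, 147 and 21.4 CPM in cardiac replicates 1 to 4, 74.2, 41.6, 79.3 and 90.3 CPM in the hepatic libraries and 39.6, 44.8, 9.19 and 26.8 CPM in monoculture libraries. The other 3 cardiac libraries were thus above every other library, and cardiac replicate 4 was lower than every hepatic library and lay within the monoculture range. Means were 121 ± 67.6 CPM in cardiac co-culture, 71.3 ± 21.0 CPM in hepatic co-culture and 30.1 ± 15.9 CPM in monoculture (SD, n = 4 each), and the cardiac mean was 155 ± 13.3 CPM (SD, n = 3) without replicate 4. With all libraries no difference passed the threshold: log2 2.01 ± 0.66 for cardiac co-culture against monoculture (SE, adjusted p = 0.0910), 1.25 ± 0.65 for hepatic co-culture against monoculture (SE, adjusted p = 0.189) and 0.77 ± 0.63 for cardiac against hepatic co-culture (SE, adjusted p = 0.559; 95% interval -0.66 to 2.19). Without cardiac replicate 4 the log2 fold change was 2.37 for cardiac co-culture against monoculture and 1.13 for cardiac against hepatic co-culture, given with no test because the library was left out for its MMP1 level. Of the other 6 tested genes, MMP14 was called in the cardiac co-culture against the monoculture without that library, where 19.1% of all tested genes were called. In the same fit the hepatic co-culture held 3 calls, where 31.2% of all genes were called, and cardiac against hepatic co-culture 0, where 4.79% were.

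MMP3, the stromelysin, lies between them on chromosome 11 (102835801 to 102843803, minus strand) and had 17, 17, 17 and 1 counts in the cardiac libraries, 0, 21, 2 and 9 in the hepatic libraries and 4, 10, 0 and 12 in the monoculture libraries. As for MMP1, cardiac replicates 1 to 3 were alike and replicate 4 was far below them, but hepatic and monoculture libraries reached from 0 to about the cardiac level. It passed the low-count filter (0.295 CPM in at least 4 libraries) through 3 cardiac, 2 hepatic and 1 monoculture library. The fitted values were log2 1.35 ± 0.96 in the cardiac (SE, adjusted p = 0.404) and 0.44 ± 0.99 in the hepatic co-culture (SE, adjusted p = 0.778) against the monoculture. Cardiac against hepatic co-culture gave 0.91 ± 0.95 (SE, adjusted p = 0.646), so at this depth no difference in MMP3 was detectable.

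The gelatinases were close to absent from the counts. MMP2 (chromosome 16, 55389700 to 55506691, plus strand) had 0, 0, 1 and 0 counts in the cardiac libraries, 2, 3, 0 and 4 in the hepatic libraries and 0, 2, 8 and 2 in the monoculture libraries. MMP9 (chromosome 20, 46008908 to 46016561, plus strand) had 27, 25, 6 and 0 counts in the cardiac libraries, 8, 4, 6 and 6 in the hepatic libraries and 7, 2, 2 and 9 in the monoculture libraries. Cardiac replicates 1 and 2 were thus the highest of all in MMP9 and cardiac replicate 4 the lowest. In 6 two-sided exact permutation tests on CPM, for which the smallest possible p was 0.0286, MMP9 gave p = 0.343 for cardiac co-culture against monoculture, 0.286 for hepatic co-culture against monoculture and 0.4 for cardiac against hepatic co-culture, each with an adjusted p of 0.48. MMP2 gave exact permutation p = 0.143 for cardiac co-culture against either other group (adjusted p = 0.429) and 1.0 for hepatic co-culture against monoculture. An antisense gene, SLC12A5-AS1, overlaps 18.4% of the MMP9 exons and had 0 to 17 counts per library, and since the strand setting of the counting is not given, reads of the pair cannot be told apart.

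TIMP1, a secreted inhibitor, lies on the X chromosome (47582313 to 47586789, plus strand) within SYN1 on the opposite strand, with no exon in common. It had 345, 367, 280 and 328 CPM in the cardiac libraries, 426, 303, 288 and 258 CPM in the hepatic libraries and 208, 247, 253 and 251 CPM in monoculture libraries. All co-culture libraries were above all monoculture libraries, and cardiac and hepatic libraries overlapped. The increase was close to the threshold in both: log2 0.46 ± 0.14 in the cardiac co-culture (SE, adjusted p = 0.0522) and 0.41 ± 0.14 in the hepatic co-culture (SE, adjusted p = 0.0367), each against the monoculture. The hepatic call was lost in 8 of the 12 fits without 1 library. These were the fits without cardiac replicate 1 (adjusted p = 0.0521), cardiac replicate 4 (0.0518), hepatic replicate 1 (0.0605) or hepatic replicate 2 (0.0537), and those without monoculture replicate 1 (0.0965), 2 (0.0595), 3 (0.0628) or 4 (0.0599). The cardiac value crossed the threshold without hepatic replicate 1 (adjusted p = 0.00404) or hepatic replicate 4 (0.0348). Cardiac and hepatic co-culture differed by log2 0.05 ± 0.13 (SE, 95% interval -0.24 to 0.34).

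TIMP2, the inhibitor that pairs with MMP14, lies on chromosome 17 (78852977 to 78925387, minus strand) and varied least. It had 343, 338, 343 and 351 CPM in the cardiac libraries, 454, 353, 380 and 350 CPM in the hepatic libraries and 314, 318, 331 and 329 CPM in monoculture libraries. All co-culture libraries were again above the monoculture, by a small margin. TIMP2 rose 1.19-fold in the hepatic co-culture (log2 0.25 ± 0.07 SE, adjusted p = 0.0178), a call lost without monoculture replicate 1 (log2 0.23, adjusted p = 0.0549). Its cardiac value against the monoculture was log2 0.09 ± 0.07 (SE, adjusted p = 0.483; 95% interval -0.07 to 0.25), and cardiac against hepatic co-culture it was -0.16 ± 0.07 (SE, adjusted p = 0.232).

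TIMP3, which binds to the matrix and also blocks ADAM proteinases, lies on chromosome 22 (32801701 to 32863043, plus strand) within SYN3 on the opposite strand, with no exon in common. It had 34.9, 33.0, 29.9 and 38.9 CPM in the cardiac libraries, 43.0, 81.8, 32.8 and 37.6 CPM in the hepatic libraries and 30.1, 39.0, 54.4 and 57.9 CPM in monoculture libraries. The groups overlapped throughout, and hepatic replicate 2 was the highest library. No comparison passed the threshold: log2 -0.41 ± 0.30 in the cardiac co-culture (SE, adjusted p = 0.446) and 0.11 ± 0.30 in the hepatic co-culture (SE, adjusted p = 0.825) against the monoculture, and -0.52 ± 0.30 for cardiac against hepatic co-culture (SE, adjusted p = 0.386). The hepatic value changed sign without hepatic replicate 2 (log2 -0.26) and without monoculture replicate 1 (log2 -0.05).

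Counting groups that did not overlap in CPM, 3 of the 7 genes (MMP14, TIMP1 and TIMP2) were higher in every cardiac than in every monoculture library, where 7.77% of all tested genes were. For the hepatic co-culture 4 of the 7 (those and MMP13) were, where 15.1% of all genes were. MMP13 and MMP14 were lower in every cardiac than in every hepatic library, where 5.92% of all genes were.

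The balance of enzyme and inhibitor mRNA was described by per-length ratios, without a test. MMP14 over TIMP2 was 2.94, 3.30, 3.07 and 2.21 in the cardiac libraries, 3.55, 3.21, 3.53 and 3.19 in the hepatic libraries and 2.24, 2.19, 1.66 and 1.87 in the monoculture libraries. Every hepatic library was above every monoculture library, and cardiac replicate 4 was the only cardiac library inside the monoculture range. Means were 2.88 ± 0.471 in the cardiac co-culture, 3.37 ± 0.199 in the hepatic co-culture and 1.99 ± 0.275 in the monoculture (SD, n = 4 each). The 6 proteinases summed over the 3 inhibitors gave 0.912, 0.897, 1.05 and 0.526 in the cardiac libraries, 0.886, 0.806, 1.07 and 1.03 in the hepatic libraries and 0.736, 0.652, 0.435 and 0.528 in the monoculture libraries. The hepatic libraries were again above all monoculture libraries, as were 3 of the 4 cardiac libraries.

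**Figure D4:**
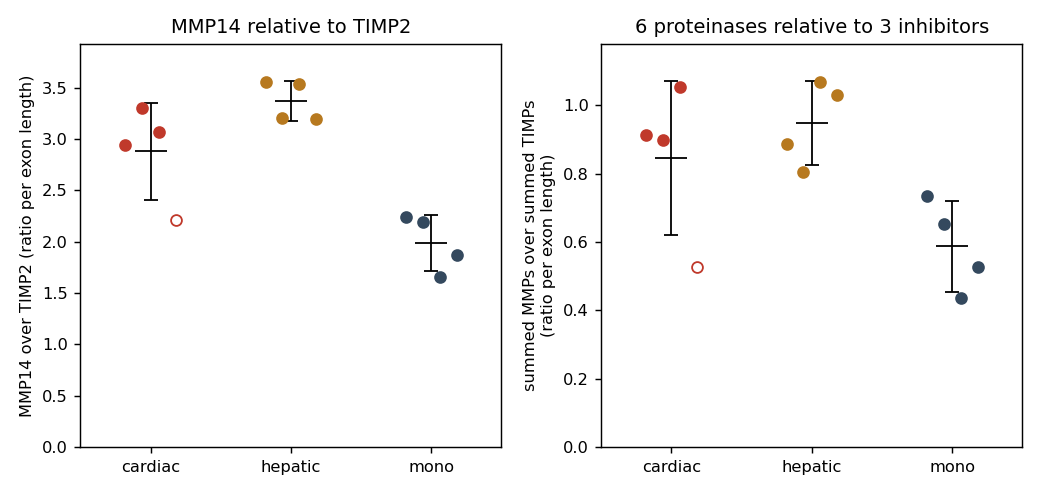
Ratios of per-length levels in each library (linear axes from 0), with MMP14 over TIMP2 on the left and 6 proteinases over 3 inhibitors on the right; circles are libraries, the open circle is cardiac replicate 4, and bars with whiskers are means with SD over 4 libraries. MMP14 over TIMP2 was 3.19 or more in the hepatic libraries and 2.24 or less in the monoculture.

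The genes whose log-scale level was most like that of each member over the 12 libraries are given as a description; the libraries share group and depth differences. For MMP1 they were PLEK2 (Pearson r = 0.977), BMP6 (0.976) and MMP10 (0.969, Spearman rho = 0.993), and the same 3 genes led over the 11 libraries without cardiac replicate 4 (0.980, 0.974 and 0.971). MMP10, whose promoter with its AP-1 match is printed above, is a stromelysin on the same chromosome 11 cluster. It had 22.0, 19.8, 15.7 and 1.13 CPM in the cardiac libraries, 5.08, 3.35, 8.43 and 11.3 CPM in the hepatic libraries and 3.87, 4.62, 0.993 and 1.55 CPM in monoculture libraries. Its low library in the cardiac co-culture was the same as for MMP1, and its value against the monoculture was log2 2.41 ± 0.83 with all libraries (SE, adjusted p = 0.107). Without cardiac replicate 4 it was 2.80, given with no test since MMP10 follows the MMP1 level for which that library was left out. In the hepatic co-culture MMP10 stood at 1.34 ± 0.83 (SE, adjusted p = 0.265).

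**Figure D5:**
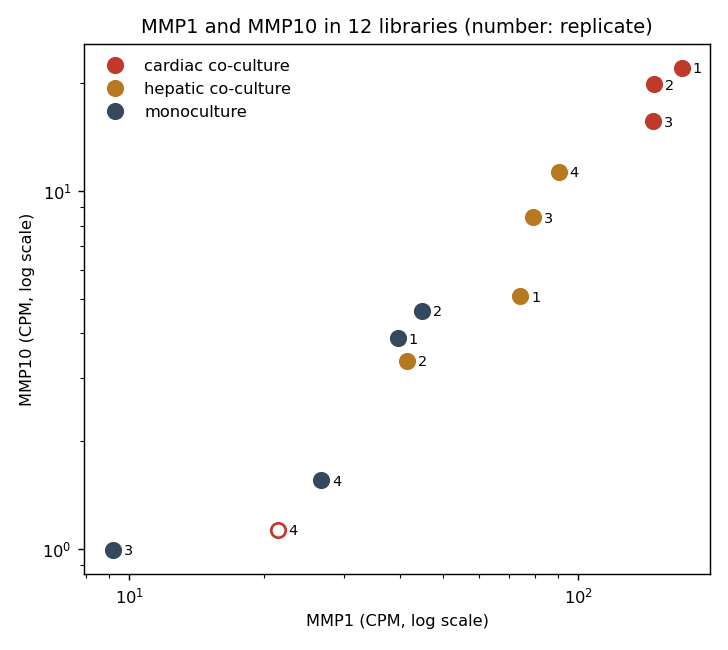
MMP1 against MMP10 (CPM, both axes on a log scale) in the 12 libraries, numbered by replicate within its group; the open circle is cardiac replicate 4. Cardiac replicates 1 to 3 lie at the upper right, at 147 CPM of MMP1 or more, and cardiac replicate 4 lies among the monoculture libraries at 21.4 CPM of MMP1 and 1.13 CPM of MMP10.

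For MMP14 the most similar genes were LTBP4 (r = 0.993), which encodes a binding protein of latent TGF-beta, SLC9A7 (0.988), a sodium/proton exchanger, and WNT7B (0.987), a WNT ligand. Leaving out the 2 libraries farthest from the median of MMP14 gave 0.991, 0.979 and 0.984. TIMP2 followed SERPINB9 (0.981), ATP5MC2 (0.949) and SYNGR2 (0.947), and TIMP1 followed EIF4EBP1 (0.952), SLC39A4 (0.944) and GRINA (0.944). MMP13 followed CHRNB1 (0.916), AGBL5 (0.903) and FAM69B (0.901), and TIMP3 followed CTGF (0.864), P3H2 (0.863) and APRT (0.815). MMP3 had PLCB1 (0.883), GJA1 (0.858) and OXSR1 (0.858), at counts where such values are weak. The likeness of TIMP3 to P3H2 fell to 0.562 and to CTGF to 0.708 without the 2 farthest libraries.

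The rest of the family comprised 18 genes, of which 11 were tested. In the hepatic co-culture 2 rose (MMP11 and MMP24) and 3 fell (MMP15, MMP19 and TIMP4) against the monoculture, 5 of 11 where 28.0% of all tested genes were called. In the cardiac co-culture 1 of 11 rose (MMP11), close to the 8.26% called over all genes. In the fit without cardiac replicate 4, where 19.1% of all genes were called, MMP11 was called again. MMP7 and MMP10 passed the threshold there too but are not counted. MMP10 follows the MMP1 level for which that library was left out, and MMP7 is a description, as given below. MMP11, also called stromelysin 3 and known from the stroma of breast tumours, had 17.2, 15.2, 16.2 and 12.4 CPM in the cardiac libraries, 21.9, 18.1, 17.9 and 18.4 CPM in the hepatic libraries and 9.47, 9.47, 8.06 and 9.66 CPM in monoculture libraries. Like MMP14, it was lowest in the monoculture in all libraries: log2 0.73 ± 0.12 in the cardiac (SE, adjusted p = 0.00380) and 1.06 ± 0.12 in the hepatic co-culture (SE, adjusted p = 7.77e-06). MMP19 took the other direction in the hepatic co-culture, with 11.8, 8.92, 11.8 and 9.66 CPM in the cardiac libraries, 5.40, 5.36, 4.66 and 6.81 CPM in the hepatic libraries and 8.28, 7.63, 8.68 and 7.86 CPM in monoculture libraries. It was higher in the cardiac than in the hepatic co-culture by log2 0.93 ± 0.15 (SE, adjusted p = 5.15e-04), and MMP15, a membrane-anchored enzyme, by 0.67 ± 0.18 (SE, adjusted p = 0.0347), which became 0.60 (adjusted p = 0.0823) without cardiac replicate 4. MMP7, matrilysin, had 0.641 CPM or less in every library and gave log2 3.97 ± 1.22 in the cardiac co-culture against the monoculture (SE, adjusted p = 0.0507), and 4.41 without cardiac replicate 4. It passed the low-count filter through 3 cardiac and 2 hepatic libraries and no monoculture library, and its monoculture counts were 0, 0, 1 and 2, so that a gene kept this way had to differ and its value is a description.

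MMP1, MMP3, MMP13 and MMP10 belong to a run of 9 metalloproteinase genes on chromosome 11 (102520508 to 102955734, 435 kb). MMP12, MMP20 and MMP27 in this run had no count in any library, as had MMP26 elsewhere. Over the 404.4 M counts of the 12 libraries, a count of 0 allows a level of up to 0.00742 CPM (3 counts), for counting error only. MMP8 had 8 counts in 1 library. Expression along the run was uneven: MMP1 and its neighbour MMP10 had 43 or more counts in every library, and its neighbour on the other side, MMP3, at most 21.

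Genes that activate or restrain metalloproteinases outside the family were taken as a list of 19 reported genes, of which 17 were tested. In the hepatic co-culture 6 rose and 1 fell against the monoculture, and in the cardiac co-culture 2 rose and 1 fell (5 and 1 without cardiac replicate 4). Over all tested genes, 28.0% were called for hepatic and 8.26% for cardiac co-culture (19.1% without cardiac replicate 4). PLAUR, the urokinase receptor on the plasmin route of proenzyme activation, rose in both co-cultures, by log2 0.44 ± 0.08 in the cardiac (SE, adjusted p = 0.00623) and 0.48 ± 0.08 in the hepatic (SE, adjusted p = 2.92e-04). PLAT, the tissue plasminogen activator, rose by log2 0.28 in the cardiac and 0.50 in the hepatic co-culture. TFPI2, a serine proteinase inhibitor of the matrix, averaged 14.5 ± 1.82 CPM in cardiac co-culture and 21.3 ± 2.15 CPM in monoculture (SD, n = 4 each) and fell by 0.55 on the log2 scale (adjusted p = 0.0163). It was lower in the hepatic co-culture too, at log2 -0.36 in the fit without cardiac replicate 4 (adjusted p = 0.0279). ADAM15, a membrane-bound proteinase of the ADAM family, rose by log2 0.39 in the hepatic co-culture (adjusted p = 6.60e-04). Between cardiac and hepatic co-culture the 3 smallest adjusted p-values of the list missed the threshold, at log2 -0.23 for ADAM15 (adjusted p = 0.0564), -0.19 for ADAM9 (adjusted p = 0.0844) and -0.28 for PLAU, urokinase (adjusted p = 0.114). Without cardiac replicate 4, PLAU was called lower in the cardiac than in the hepatic co-culture (log2 -0.38, adjusted p = 0.0171).

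Transcription factors of the AP-1, ETS and NF-kB families and their relatives, which act on promoters of this family, were a list of 17, all tested. In the hepatic co-culture 5 rose and 4 fell against the monoculture (5 and 5 without cardiac replicate 4), in the cardiac co-culture 2 rose and 0 fell (6 and 0 without it), and between cardiac and hepatic co-culture 3 were higher and 1 lower (4 and 2 without it). The shares called over all genes were 28.0% in the hepatic co-culture, 8.26% in the cardiac co-culture and 6.18% between them. Without cardiac replicate 4 these shares were 31.2%, 19.1% and 4.79%. With all libraries the cardiac count against the monoculture was near the background. Without cardiac replicate 4 it was 6 of 17 beside 19.1%, a description because that library lay among the monoculture libraries. The ETS factor ETV4 averaged 78.3 ± 3.23 CPM in cardiac co-culture, 99.1 ± 5.31 CPM in hepatic co-culture and 65.9 ± 4.21 CPM in monoculture (SD, n = 4 each), and all 3 differences were called (log2 0.25 in the cardiac and 0.59 in the hepatic co-culture against the monoculture, and -0.34 for cardiac against hepatic co-culture). JUNB, an AP-1 subunit, rose by log2 0.81 ± 0.22 in the cardiac co-culture (SE, adjusted p = 0.0477). It rose in the hepatic co-culture too, by log2 0.84 in the fit without cardiac replicate 4 (adjusted p = 0.00213). Cardiac against hepatic co-culture in that fit, JUNB stood at log2 0.13 (adjusted p = 0.752). The ETS factor ELF3 rose by 0.87 ± 0.17 in the hepatic co-culture (SE, adjusted p = 9.98e-04). FOSB, another AP-1 subunit, averaged 1.20 ± 0.278 CPM in hepatic co-culture and 3.71 ± 1.14 CPM in monoculture and fell by 1.61 on the log2 scale (adjusted p = 2.83e-04). CEBPB and FOSL2 were higher in the cardiac than in the hepatic co-culture, by log2 0.62 (adjusted p = 0.0189) and 0.33 (adjusted p = 0.0192). RELA, an NF-kB subunit, stood at log2 0.25 in the cardiac co-culture against the monoculture (adjusted p = 0.0638).

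Matrix proteins on which these enzymes act were a list of 18, of which 17 were tested. In the hepatic co-culture 10 rose and 1 fell against the monoculture (12 and 1 without cardiac replicate 4), in the cardiac co-culture 5 rose and 0 fell (7 and 0 without it), and between the co-cultures 1 was higher and 1 lower, in that fit too. Over all genes 28.0% were called in the hepatic co-culture, 8.26% in the cardiac co-culture and 6.18% between cardiac and hepatic co-culture. Without cardiac replicate 4 these shares were 31.2%, 19.1% and 4.79%. LAMA3, a laminin chain of the basement membrane, averaged 104 ± 7.79 CPM in cardiac co-culture, 140 ± 19.7 CPM in hepatic co-culture and 62.5 ± 6.83 CPM in monoculture (SD, n = 4 each). It rose by log2 0.73 in the cardiac (adjusted p = 0.00156) and 1.17 in the hepatic co-culture (adjusted p = 3.41e-07) and was lower in the cardiac than in the hepatic co-culture (log2 -0.44, adjusted p = 0.00949). TNC, tenascin C, rose by log2 0.49 in the cardiac and 0.74 in the hepatic co-culture, and COL7A1, the collagen of anchoring fibrils, by 0.71 in the cardiac co-culture (adjusted p = 0.00728). COL7A1 rose in the hepatic co-culture too, by log2 0.51 in the fit without cardiac replicate 4 (adjusted p = 0.00403). COL1A2, a chain of type I collagen, stood at log2 -1.36 for cardiac against hepatic co-culture (adjusted p = 0.0684).

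Fibroblasts also make MMPs, TIMPs and matrix, so their markers are given beside these results. Of 16 fibroblast genes 12 were tested. Against the monoculture 2 rose (COL1A2 and COL3A1) and 3 fell (DCN, FBLN1 and S100A4) in the hepatic co-culture, and 1 fell (S100A4) in the cardiac co-culture (1 rose and 3 fell without cardiac replicate 4). With 28.0% of all genes called for hepatic and 8.26% for cardiac co-culture, the cardiac count with all libraries was at the background. Without cardiac replicate 4, where the list held 1 higher and 3 lower of 12, the share over all genes was 19.1%. Their summed level was 399 to 507 CPM in cardiac co-culture, 304 to 474 CPM in hepatic co-culture and 423 to 501 CPM in monoculture. S100A4, at 136 to 363 CPM, and COL5A1, at 86.9 to 309 CPM, carried most of that sum. Both were also expressed in the monoculture, where the cancer cells were alone, so the sum does not measure fibroblast content. THY1 and POSTN were at 0 in all 12 libraries, and LUM, PDGFRA and FAP stayed under 1 CPM in all of them. Others of the list reached higher levels, in the monoculture too. COL6A3 had 15.9 to 42.2 CPM and COL1A1 4.65 to 12.5 CPM over all libraries. TAGLN had 2.49 to 5.68, PDGFRB 1.25 to 4.22 and ACTA2 0.591 to 2.23 CPM. COL3A1 had 9, 14, 16 and 2 counts in the cardiac libraries. It had 16, 44, 16 and 10 in the hepatic and 0, 0, 1 and 12 in the monoculture libraries. FAP had 5, 5, 10 and 0 counts in the cardiac libraries, 5, 5, 0 and 11 in the hepatic libraries and 0, 0, 1 and 0 in the monoculture libraries. DCN, a small matrix proteoglycan, averaged 2.02 ± 0.500 CPM in cardiac co-culture, 0.278 ± 0.118 CPM in hepatic co-culture and 2.48 ± 1.08 CPM in monoculture (SD, n = 4 each), and FBLN1 3.94 ± 1.45 (cardiac), 0.856 ± 0.149 (hepatic) and 6.12 ± 0.984 CPM (monoculture). COL1A2 went the other way, at 1.80 ± 0.991 (cardiac), 4.55 ± 1.92 (hepatic) and 1.56 ± 0.591 CPM (monoculture). The part of other cell types in the values of the MMP and TIMP genes was not tested.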

How the data were processed

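Per the labels and the deposited table, the values are raw read counts per Ensembl gene that the authors made with poly(A)-selected RNA, not normalized, in 12 columns. The tools, per the submitters' processing notes, included HISAT2 2.2.1, featureCounts 2.0.6 and DESeq2 1.42.0 with build GRCh38. The strand setting of the counting and the treatment of reads with several matches were not given in the sources used here. All 58735 gene identifiers were found in GENCODE release 29, which gave symbols, coordinates and exon lengths.

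Genes were tested with edgeR 4.0.16 in R 4.3.3 (TMM scaling, filterByExpr with a minimum count of 10, robust quasi-likelihood test, 1 fit over 12 libraries, two-sided, Benjamini-Hochberg adjustment over 17468 genes holding 99.9% of counts; common biological coefficient of variation 14.9%). The procedure was tested on simulated data. The SE was taken from the log2 fold change and its F statistic, and intervals from the fit's degrees of freedom. MMP2 and MMP9, under the filter, were given exact permutation tests. Levels per kb used the union of exons. Likeness was Pearson's r of log2 CPM with a prior count of 2, over protein-coding genes with a mean above 1. Of each list the 3 genes with the smallest adjusted p per comparison were named; a few others in the text were chosen after their values were seen. Alternatives were DESeq2, other scalings, no filter, only the groups compared, a replicate block and leaving out each library. The members and lists were chosen with earlier results of these data known. A gene of the list of activators and inhibitors is not reported here. Replicate numbers are those of the labels.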

Additional observations from a re-analysis of the deposited data

Results flagged for a closer look

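Within groups of 4 libraries, the gap of the extreme library to its nearest neighbour was set against the range in 27 groups (9 genes, 3 groups), where chance flags about 1 in 20. MMP1 in the cardiac co-culture stood apart, with cardiac replicate 4 lowest at 21.4 CPM, which is the value for which that library had been singled out and so no independent sign. TIMP1 in the monoculture did too, with replicate 1 lowest at 208 CPM. MMP2 in the cardiac co-culture was picked out for its single count, in replicate 3 (0.0305 CPM).

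The effects of the 2 co-cultures against the shared monoculture differed, by the test of cardiac against hepatic co-culture, for 8 genes of the lists. Genes only in the marker lists were not counted here. The calls were 2 of 11 in the rest of the family and 0 of 17 among activators and inhibitors. Of 17 transcription factors 3 were higher and 1 lower, and of 17 matrix proteins 1 was higher and 1 lower. Over all tested genes 6.18% were called. The log2 difference of the 8 genes, cardiac minus hepatic, was 0.67 for MMP15, 0.93 for MMP19, 1.05 for FOSB, 0.33 for FOSL2, 0.62 for CEBPB and 2.80 for DCN, all higher in the cardiac co-culture. It was -0.34 for ETV4 and -0.44 for LAMA3, both higher in the hepatic co-culture.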

How the results depend on the processing

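The hepatic calls of MMP13 and MMP14 were kept under every alternative run. Under the other settings, members called in the cardiac co-culture against the monoculture were 3 with DESeq2 and 2 each without a low-count filter, with only the 2 groups compared and with upper-quartile scaling, beside 1; between cardiac and hepatic co-culture 1 was called (MMP14) with DESeq2, without a filter and with a replicate block, beside 0. The cause was not tested. Over the fits leaving out 1 library, members called ranged from 2 to 4 (hepatic against monoculture), 0 to 2 (cardiac against monoculture, the 2 without cardiac replicate 4 counting MMP1, for whose level that library was left out) and 0 to 0 (cardiac against hepatic), and all genes called from 3660 to 5529 (hepatic against monoculture), 263 to 3378 (cardiac against monoculture) and 676 to 1269 (cardiac against hepatic). Between cardiac and hepatic co-culture 1522 genes in all were called with DESeq2 and 1513 without a filter, beside 1080 with the main settings. In the cardiac co-culture against the monoculture 2303 genes were called with DESeq2 and 2219 without a filter, beside 1443. With only the 2 groups compared 1464 were called there, and with upper-quartile scaling 1490. Upper-quartile scaling moved the share called higher there to 72.2%, against 59.7% with TMM. Values that changed sign were uncalled: hepatic against monoculture, MMP3 ranged from -0.35 to 0.94 and TIMP3 from -0.26 to 0.26 over these fits, both below 0 without hepatic replicate 2 and TIMP3 also without monoculture replicate 1; TIMP1 for cardiac against hepatic ranged from -0.039 to 0.22, below 0 without hepatic replicate 4; the MMP2 difference between hepatic co-culture and monoculture was below 0 on unscaled CPM (-0.00225). The labels' replicate numbers gave no sign of pairing (correlation of same-numbered deviations -0.082 to 0.113, over 0.1 in 1 of 12 pairs, and best with its own number in 6 of 24 cases). Weak correlations cannot exclude shared batches, and pairing by the numbers in the library names was not tested. The replicate block, which used the replicate numbers, gave 3 members called for hepatic and 1 for cardiac against monoculture. In it TIMP1 in the hepatic co-culture was at adjusted p = 0.0584 and MMP14 between the co-cultures at 0.0442. It called 4660 genes (hepatic against monoculture), 1310 (cardiac against monoculture) and 891 (cardiac against hepatic). The lists' counts without cardiac replicate 4 were added after the data were seen. Depth limits MMP2, MMP3 and MMP9, whose counts did not exceed 27 in any library.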

Other observations

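FGG, a fibrinogen chain made by hepatocytes, was 1 of 2 hepatocyte genes that could be tested. It had 4.47, 4.80, 3.30 and 1.79 CPM in the cardiac libraries, 5.54, 7.04, 5.99 and 1.68 CPM in the hepatic libraries and 0.609, 1.48, 0.300 and 1.17 CPM in the monoculture libraries, and rose in both co-cultures (log2 2.01 ± 0.53 SE, adjusted p = 0.0391 in the cardiac; 2.52 ± 0.52 SE, adjusted p = 0.00403 in the hepatic). The other, SERPINA1, was higher in the cardiac than in the hepatic co-culture by log2 0.81 (adjusted p = 0.0482), a call lost without cardiac replicate 4 (log2 0.87, adjusted p = 0.0739). Of 7 genes of the cancer line, 2 fell (AXL and CAV1) in the cardiac co-culture, while 2 rose (VIM and LGALS1) and 2 fell (EGFR and CAV1) in the hepatic co-culture, each against the monoculture; over all genes 8.26% were called in the cardiac and 28.0% in the hepatic co-culture. Without cardiac replicate 4 the cardiac count was 1 higher and 4 lower, where 19.1% of all genes were called. Of the 5 genes low in this line, 3 were tested and 1, ERBB2, fell in the hepatic co-culture (log2 -0.25).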
